A study of Mus musculus with 4 samples.

Results

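The genes of the circadian clock were examined in RNA sequencing libraries of FACS-enriched tdTomato-positive cells from mouse embryos at E16. The 10 genes were *Clock*, *Arntl*, *Per1*, *Per2*, *Per3*, *Cry1*, *Cry2*, *Nr1d1*, *Nr1d2* and *Dbp*, chosen by their symbols among the 55573 Ensembl genes counted, and each symbol matched 1 gene. In *Dnmt1* KO cells, *Per1*, *Per2*, *Per3*, *Cry2*, *Arntl*, *Nr1d1* and *Dbp* were higher than in WT cells, by 1.58-fold for *Arntl* and up to 8.47-fold for *Per3*, whereas *Clock*, *Cry1* and *Nr1d2* did not pass the threshold. The genes were proposed with the KO against WT results of these libraries already known, and *Per1* and *Per2* were also among the genes that the study picked from them. The differences between genotypes and the calls are therefore given for these 10 genes as a description, and no test is drawn from them.

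All embryos carried *Hmx3-Cre*, which restricts recombination to the *Hmx3* lineage, and the *tdTomato* reporter, on a C57BL/6J background. WT embryos had an intact *Dnmt1*, and KO embryos carried the *Dnmt1* loxP2 allele, from which Cre removes exons so that the reading frame is lost. Cells of 12 WT and 6 KO embryos were pooled, and there were 2 libraries per genotype, named WT 1, WT 2, KO 1 and KO 2 here. The sample labels call the libraries biological replicates and name the basal telencephalon as the region, while the methods of the study describe technical duplicates of pooled samples and the preoptic area (POA), so that SDs and p-values describe the spread between libraries, which may be technical. The day of insemination counts as the first embryonic day in the labels. The sources used here give no time of day for the collection of either pool, and with the single stage E16 no cycle over the day can be read from the libraries.

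In the circadian clock, a heterodimer of CLOCK and BMAL1 (the protein encoded by *Arntl*) binds E-box sequences and activates the *Per*, *Cry*, *Nr1d* and *Dbp* genes. PER and CRY proteins return to the nucleus and repress this activator, which closes the main loop, and the nuclear receptors REV-ERB alpha and beta, encoded by *Nr1d1* and *Nr1d2*, repress *Arntl* through ROR elements in a second loop. DBP, a PAR bZIP transcription factor, carries the rhythm to output genes through D-box sequences. The master clock of mammals lies in the suprachiasmatic nucleus of the hypothalamus, next to the POA, and the same genes run in most other cell types.

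The libraries held 8075102 to 9995968 counted reads, and the 10 clock genes together took 0.0257% to 0.0262% of the counts in WT and 0.0516% to 0.0539% in KO. At this depth, 3 counts corresponded to 0.294 to 0.372 CPM, the counts scaled to a common library size with TMM factors, and this floor covers counting error only. *Dnmt1*, the targeted gene, had 3103 and 4557 counts in the WT libraries against 2383 and 2552 in the KO libraries, at a log2 fold change of -0.56 (standard error, SE, 0.14, adjusted p by edgeR 0.0511). It was lower in each of 8 other settings, with an adjusted p from 0.00243 to 0.151 that was under 0.05 in 6 of them (0.00843 with DESeq2). Reads of a transcript without the removed exons still count for this gene. The share of mitochondrial rRNA was 8.66% in WT 1 and 1.51% to 2.32% in the other libraries. The median difference between the WT libraries was 0.31 on the log2 scale over all tested genes, and that between the KO libraries was 0.19.

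The 10 clock genes passed edgeR's expression filter and were fitted with all 16832 genes that did. At an adjusted p under 0.05, 7 of the 10 were higher in KO and 0 were lower, beside 7.33% of all tested genes that were higher and 0.57% that were lower. With a correction for GC content and gene length, these shares were 12.5% and 3.98%, and 8 of the 10 clock genes were higher. With DESeq2, 6 of the 10 were higher, beside 7.4% of all genes higher and 1.47% lower, and with the replicate number as a block 8 were, beside 9.65% and 3.68%. Both KO libraries lay above both WT libraries for 8 clock genes, beside 28.3% of all tested genes, and below them for 1, beside 25.2%. The median log2 fold change was 1.17 over the 10 genes and -0.03 over all tested genes.

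**Figure D1:**
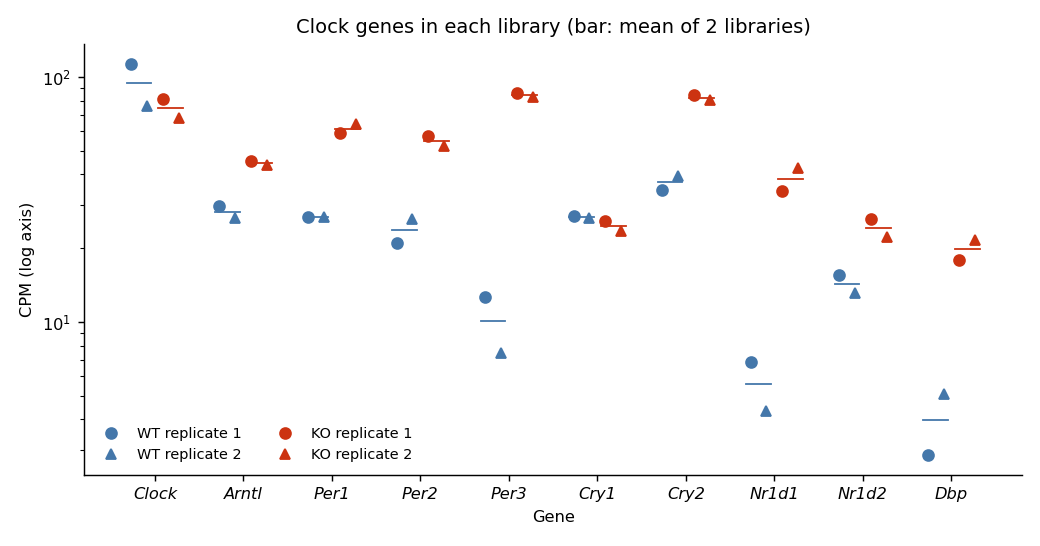
CPM of the 10 clock genes on a log axis in each of the 4 libraries (WT blue, KO red, circles for replicate 1, triangles for replicate 2), with a bar at the mean of the 2 libraries of a genotype. *Per3*, *Nr1d1* and *Dbp* show the widest gaps between genotypes, while the *Clock* points overlap and those of *Cry1* lie close together.

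Of the activators, *Clock* encodes a bHLH-PAS factor and had the highest CPM of the 10 genes in each WT library, with 914 and 779 counts in the WT libraries against 687 and 616 in the KO libraries. Its level was 94.9 ± 26.3 CPM in WT and 74.8 ± 9.78 CPM in KO (SD, n = 2 each). KO 1, at 81.7 CPM, lay between WT 1 at 113 and WT 2 at 76.3 CPM. The log2 fold change of *Clock* was -0.34 (SE 0.21), and its sign turned with the correction for GC content and gene length (0.016). *Arntl*, whose product is the partner of CLOCK, had 240 and 270 counts in the WT libraries against 381 and 397 in the KO libraries. Its level rose from 28.1 ± 2.36 CPM to 44.5 ± 1.11 CPM (SD, n = 2 each), and the genotypes did not overlap. At a log2 fold change of 0.66 (SE 0.16), *Arntl* was the called gene closest to the threshold, with an edgeR adjusted p of 0.048, against 0.0616 with DESeq2. Without KO 1 or without KO 2, its adjusted p was 0.324 or 0.318 (edgeR), where KO is a lone library.

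The PER proteins form the repressor complex with CRY proteins. *Per1*, on chromosome 11 of GRCm38 (69095217 to 69109960), had 216 and 274 counts in the WT libraries against 495 and 583 in the KO libraries. The WT libraries were almost equal at 26.8 CPM each, and the KO libraries held 58.8 and 64.2 CPM. The difference of *Per1* was 1.20 on the log2 scale (SE 0.16), or 2.29-fold. *Per2*, on chromosome 1 (91415982 to 91459324), had 169 and 269 counts in the WT libraries against 481 and 474 in the KO libraries, or 23.7 ± 3.80 CPM and 54.7 ± 3.52 CPM (SD, n = 2 each). Its log2 fold change, 1.20 (SE 0.18), was that of *Per1* to 2 decimals, and 10.6% of all tested genes had a larger one than either gene.

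*Per3*, on chromosome 4 from 151003652 to 151044665, encodes the third PER protein, which is largely dispensable for the core loop. It had 102 and 76 counts in the WT libraries against 723 and 751 in the KO libraries. The level of *Per3* rose from 10.1 ± 3.69 CPM to 84.3 ± 2.29 CPM (SD, n = 2 each), at a log2 fold change of 3.08 (SE 0.24). This was the largest difference among the 10 clock genes, and 2.91% of all tested genes had a larger one. The WT libraries stood further apart (12.7 and 7.45 CPM) than the KO libraries (86.0 and 82.7 CPM), and the gap between genotypes was wider than either.

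*Cry1* and *Cry2* encode cryptochromes, the proteins that block the CLOCK and BMAL1 heterodimer. *Cry1*, on chromosome 10 (85131700 to 85185064), had 218 and 271 counts in the WT libraries against 217 and 213 in the KO libraries. Scaled to library size, this was 26.8 ± 0.359 CPM in WT and 24.6 ± 1.65 CPM in KO (SD, n = 2 each). The KO libraries lay below the WT libraries by little, with a log2 fold change of -0.12 (SE 0.18) that did not pass the threshold in any alternative. *Cry2*, on chromosome 2 (92403646 to 92434043), had 279 and 404 counts in the WT libraries against 707 and 734 in the KO libraries. It rose from 37.1 ± 3.50 CPM to 82.4 ± 2.27 CPM (SD, n = 2 each), at a log2 fold change of 1.15 (SE 0.15). The antisense gene *D930015M05Rik* overlaps 4.67% of the exonic bases of *Cry2* and had 10 to 46 counts a library.

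*Nr1d1*, on chromosome 11 (98767932 to 98775333), had 55 and 44 counts in the WT libraries against 288 and 386 in the KO libraries. Its level rose from 5.57 ± 1.78 CPM to 38.4 ± 5.85 CPM (SD, n = 2 each), at a log2 fold change of 2.80 (SE 0.27), or 6.96-fold. *Thra*, which encodes a thyroid hormone receptor, lies on the opposite strand and overlaps 8.55% of the exonic bases of *Nr1d1*. Without stated strand handling, the reads in this overlap cannot be assigned to a strand, and their part in the *Nr1d1* counts was not measured. *Thra* was at 487 ± 69.4 CPM in WT and 407 ± 28.8 CPM in KO (SD, n = 2 each), at a log2 fold change of -0.26. *Nr1d2*, on chromosome 14 (18204054 to 18239127), had 125 and 134 counts in the WT libraries against 221 and 201 in the KO libraries. With 14.3 ± 1.69 CPM and 24.2 ± 2.93 CPM (SD, n = 2 each), both KO libraries lay above both WT libraries. Its log2 fold change of 0.76 (SE 0.22) was the one closest to the threshold from outside, with an edgeR adjusted p of 0.0799 and 0.112 with DESeq2. It came under 0.05 in 5 of 8 other settings, by edgeR with library size as the only scaling (0.0326), without a filter on low counts (0.0364), with the replicate block (0.0308), with the length and GC correction (0.0048) and with the correction and the block (0.00138). With a library left out, the edgeR adjusted p was 0.00184 without WT 1, 0.0374 without WT 2, 0.498 without KO 1 and 0.224 without KO 2.

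*Dbp*, on chromosome 7 from 45705088 to 45710203, had the fewest counts of the 10 genes summed over the 4 libraries, 23 and 52 in WT and 151 and 197 in KO. The WT libraries held 2.86 and 5.09 CPM and the KO libraries 17.95 and 21.7 CPM, so that the genotypes did not overlap. Its log2 fold change was 2.30 (SE 0.33), or 4.91-fold. *Sphk2*, a sphingosine kinase gene on the opposite strand, overlaps 18.01% of the exonic bases of *Dbp*, and the reads there cannot be assigned to a strand either. *Sphk2* itself was at 28.0 ± 1.84 CPM in WT and 39.9 ± 5.44 CPM in KO (SD, n = 2 each), at a log2 fold change of 0.51 (adjusted p by edgeR 0.139).

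Levels were compared between genes as CPM per kilobase of exonic length. In WT, *Cry1* stood highest with a mean of 8.03, followed by *Clock* with 6.91, *Cry2* with 5.87, *Per1* with 4.76, *Per2* with 4.04, *Arntl* with 3.74, *Nr1d2* with 2.65, *Nr1d1* with 1.81, *Dbp* with 1.33 and *Per3* with 1.05. The libraries of *Cry1* and *Clock*, *Clock* and *Cry2*, *Per2* and *Arntl*, *Nr1d1* and *Dbp*, and *Dbp* and *Per3* overlapped, so that the order within these pairs is not resolved. In KO, the order began with *Cry2* at 13.0, *Nr1d1* at 12.5, *Per1* at 10.9, *Per2* at 9.34 and *Per3* at 8.78, and *Clock* at 5.45 and *Nr1d2* at 4.47 came last. There the libraries of *Cry2* and *Nr1d1*, *Nr1d1* and *Per1*, and *Per2* and *Per3* overlapped, as did those of *Cry1* and *Dbp*, *Dbp* and *Arntl*, and *Arntl* and *Clock*.

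Shares within each paralogue family were taken from the same values. *Per3* made up 13.6% and 7.72% of the summed PER level per kilobase in WT and 30.7% and 29.8% in KO. *Cry1* held the larger part of the CRY sum in both WT libraries (59.7% and 55.9%) and the smaller part in both KO libraries (36.7% and 35.4%). *Nr1d1* held 43.6% and 36.6% of the REV-ERB sum in WT and 69.6% and 77.1% in KO. These shares do not depend on the scaling between libraries.

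**Figure D2:**
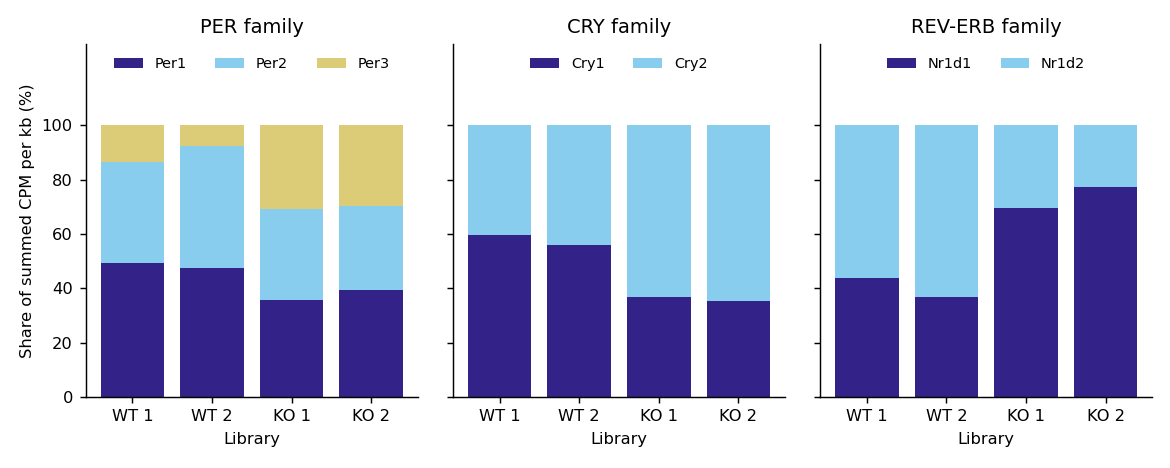
Share of each paralogue in the summed CPM per kilobase of its family (in %), 1 bar per library, for the PER, CRY and REV-ERB genes. *Per3*, *Cry2* and *Nr1d1* take a larger part of the bar in both KO libraries than in both WT libraries.

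Counts relative to *Arntl* within a library do not depend on scaling either. The ratio of *Nr1d1* to *Arntl* counts was 0.229 and 0.163 in WT and 0.756 and 0.972 in KO, and the mean of its log2 was higher in KO by 2.15 (pooled SD 0.31, n = 2 each). For *Per3* the ratio was 0.425 and 0.281 in WT against 1.90 and 1.89 in KO, a log2 difference of 2.45 (pooled SD 0.30). For *Dbp* the log2 of the ratio differed by 1.71 (pooled SD 0.53), from 0.0958 and 0.193 in WT to 0.396 and 0.496 in KO. The log2 ratios of *Per1*, *Per2* and *Cry2* to *Arntl* were higher in KO than in WT by 0.53, 0.55 and 0.49, with no overlap between the genotypes. The ratios of *Clock* and *Cry1* moved the other way, by -0.99 (pooled SD 0.23) and -0.79 (pooled SD 0.084). The denominator *Arntl* itself rose by 0.66 on the log2 scale, which is part of each of these differences, and the fold changes of *Clock* and *Cry1* themselves were not called. *Nr1d2* kept nearly the same ratio, 0.521 and 0.496 in WT and 0.58 and 0.506 in KO, and its genotypes overlapped.

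**Figure D3:**
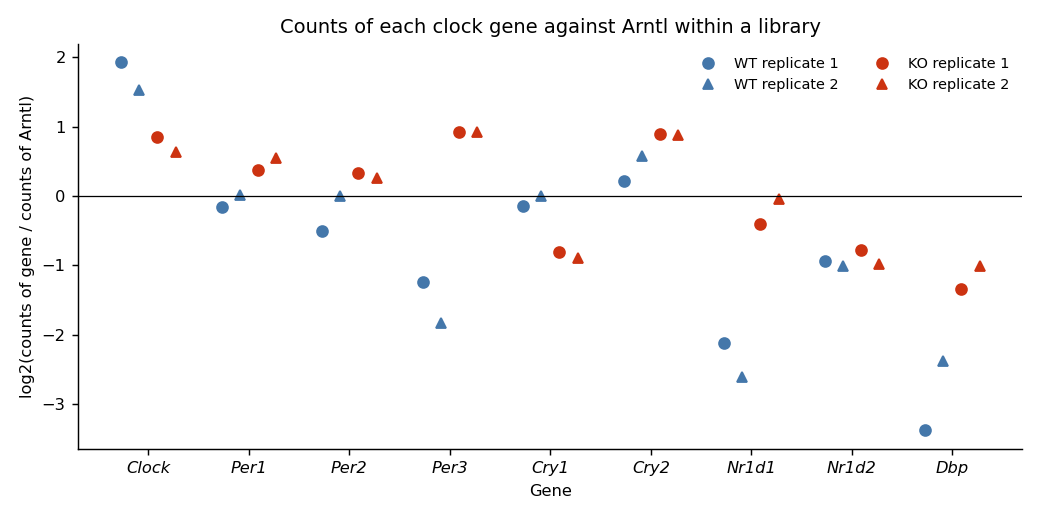
Log2 ratio of the counts of 9 clock genes to the counts of *Arntl* in the same library (WT blue, KO red, circles for replicate 1, triangles for replicate 2). Both KO points lie above both WT points for *Per1*, *Per2*, *Per3*, *Cry2*, *Nr1d1* and *Dbp*, below them for *Clock* and *Cry1*, while for *Nr1d2* KO 2 lies between the WT points and KO 1 above them.

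The sequences upstream of the clock genes were searched for the elements of the loops. RefSeq windows (GRCm38.p6) from 250 bases before to 50 bases after a transcription start were at hand for 9 of the 10 genes, with 13 windows in all, and *Per2* had none. On both strands, the E-box CACGTG was found in *Per1* and *Cry1* (7.15% of all 32851 windows), its variant CACGTT in *Cry1*, *Cry2* and *Nr1d1* (4.68%), the D-box TTATGTAA in *Per3* at 2 places (0.938%) and the core TAGGTCA of the ROR element in *Arntl* (2.61%). None of these motifs overlapped another in these windows. The cAMP response element TGACGTCA (1.79% of all windows) was not found in the 13 windows, and the windows of *Clock*, *Nr1d2* and *Dbp* held none of the motifs. The 6 stretches that hold a match are shown 5′ to 3′ on the strand of the gene, with the matched letters in capitals. They lie at chr11:69098749-69098818 for *Per1*, chr4:151044801-151044885 for *Per3*, chr10:85185085-85185154 for *Cry1*, chr2:92434210-92434259 for *Cry2*, chr11:98775378-98775437 for *Nr1d1* and chr7:113207528-113207557 for *Arntl*.
Per1: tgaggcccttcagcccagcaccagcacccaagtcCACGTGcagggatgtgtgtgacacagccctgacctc
Per3: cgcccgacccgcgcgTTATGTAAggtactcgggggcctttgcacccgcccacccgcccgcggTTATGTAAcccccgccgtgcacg
Cry1: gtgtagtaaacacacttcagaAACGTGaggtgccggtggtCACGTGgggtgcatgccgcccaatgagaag
Cry2: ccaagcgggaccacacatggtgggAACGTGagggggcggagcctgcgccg
Nr1d1: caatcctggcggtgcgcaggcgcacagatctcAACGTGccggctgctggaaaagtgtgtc
Arntl: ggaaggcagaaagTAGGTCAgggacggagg

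Counted from the transcription start, the E-box of *Per1* begins at position -166, the D-boxes of *Per3* at -205 and -158, and the ROR element core of *Arntl* at 31 within the transcript. *Per1* and *Per3* thus carry different elements in these windows, and *Cry1* holds an E-box at -60 and a variant at -79. A match is a run of letters and not a measured binding site. The windows of the clock genes held a median of 21 CpG sites, against 7 over all windows, which were taken without regard to expression. The 3 windows of *Clock* held 42, 46 and 9 CpG sites, that of *Per3* held 41 and that of *Nr1d1* held 9. Methylation was not analysed here.

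The other parts of the clock machinery were followed in a list of 19 genes, which holds further transcription factors, kinases and ubiquitin ligases of the loops. Of these, 5 were higher and 0 were lower at an edgeR adjusted p under 0.05, and the median over the 19 genes was -0.06 on the log2 scale. Over all tested genes, the shares were 7.33% and 0.57%. With DESeq2, the count was likewise 5 higher and 0 lower, whereas genes of the list were also lower in other settings, in which the share of lower genes over all tested genes was larger too. The list had 5 higher and 1 lower without a filter on low counts, beside 5.97% and 1.91% of all genes, 5 and 2 with the replicate block (9.65% and 3.68%), and 6 and 2 with the correction for GC content and gene length (12.5% and 3.98%). It had 6 and 3 with the correction and the block together (13.2% and 4.67%), 8 and 2 without WT 1 (14.2% and 7.15%), and 6 and 4 without WT 2 (11.2% and 12%). *Npas2*, a paralogue of *Clock* that can replace it beside BMAL1, had 16 and 29 counts in the WT libraries against 181 and 182 in the KO libraries. Its log2 fold change was 3.08 (SE 0.30, adjusted p by edgeR 0.000465). *Rora*, an activator at ROR elements, rose from 9.48 ± 0.59 CPM to 45.1 ± 0.579 CPM (SD, n = 2 each), at a log2 fold change of 2.25 (adjusted p by edgeR 0.000186). *Bhlhe40* and *Bhlhe41* encode the E-box repressors DEC1 and DEC2. Their log2 fold changes were 3.23 and 1.79 (adjusted p by edgeR 0.000311 and 0.0126), with 20 and 44 counts in the WT libraries against 259 and 311 in the KO libraries for *Bhlhe40*. The antisense gene *Gm43909* overlaps 19.0% of the exonic bases of *Bhlhe41*. *Usp2*, a deubiquitinase that acts on clock proteins, had 29 and 49 counts in the WT libraries against 233 and 282 in the KO libraries, at a log2 fold change of 2.79 (adjusted p by edgeR 0.000326).

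The 14 genes of this list that did not pass had log2 fold changes from -0.67 to 1.28. By mean CPM, which is not scaled to gene length, the highest of them were *Ddb1*, a subunit of ubiquitin ligases, *Csnk1e*, a casein kinase that phosphorylates PER proteins, and *Gsk3b*, a kinase of several clock proteins. Their log2 fold changes were -0.19, -0.17 and -0.30 (adjusted p by edgeR 0.445, 0.549 and 0.35). *Csnk1e* had 331 ± 38.2 CPM in WT and 294 ± 32.1 CPM in KO (SD, n = 2 each), and its libraries overlapped. In the list, the called genes were thus transcription factors and *Usp2*, whereas the kinases *Csnk1d*, *Csnk1e* and *Gsk3b* and the ligase subunits *Fbxl21*, *Btrc* and *Fbxw11*, singled out here after their values were seen, lay between -0.37 and -0.06 on the log2 scale.

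Of 10 output genes, 9 were tested, and *Avp* was not, with 1 and 7 counts in WT and 0 in both KO libraries. The 2 genes higher in KO were *Tef* and *Hlf*, which encode the other PAR bZIP factors beside DBP, and 0 were lower, beside 7.33% and 0.57% of all tested genes (median over the 9 genes -0.04 on the log2 scale). *Tef* had 435 and 564 counts in the WT libraries against 1010 and 1011 in the KO libraries. Its level rose from 54.6 ± 0.893 CPM to 116 ± 6.17 CPM (SD, n = 2 each), at a log2 fold change of 1.08 (SE 0.14, adjusted p by edgeR 0.00251). *Hlf* had 75 and 70 counts in the WT libraries against 195 and 202 in the KO libraries, with a log2 fold change of 1.496 (SE 0.25, adjusted p by edgeR 0.00774). By mean CPM without scaling to length, the highest genes that did not pass were *Por*, which encodes cytochrome P450 reductase, *Alas1*, the first enzyme of haem synthesis, and *Nampt*, an enzyme of NAD synthesis. Their log2 fold changes were -0.04, -0.35 and -0.31 (adjusted p by edgeR 0.915, 0.252 and 0.493), and the sign of *Por* turned with library size as the only scaling (0.057).

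**Figure D4:**
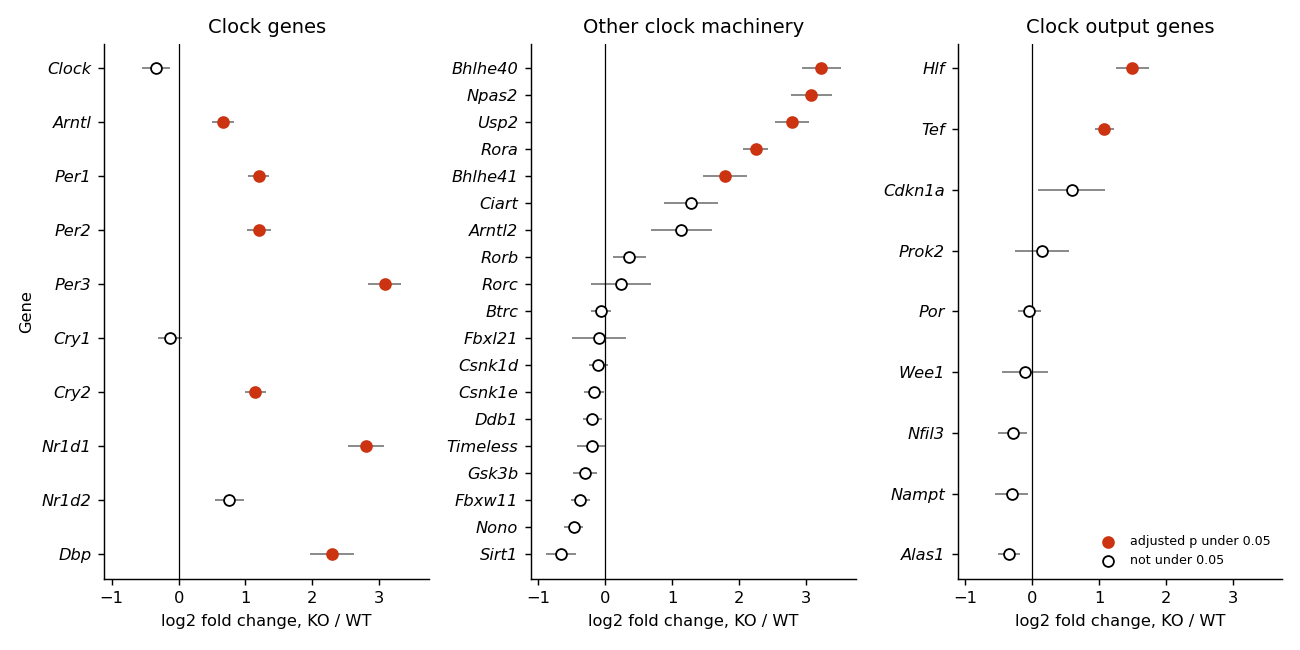
Log2 fold changes of KO against WT for the 10 clock genes, 19 other genes of the clock machinery and 9 output genes, with bars of 1 standard error and filled points for an edgeR adjusted p under 0.05. Filled points lie to the right of 0 in each panel. All genes below 0 are open, as are some to the right of it, such as *Ciart* (1.28) and *Arntl2* (1.14).

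*Per1* and *Per2* can also be induced acutely, by cAMP and neuronal activity and by glucocorticoids, and lists of genes with these inputs were compared. Of 15 genes induced by cAMP and activity, 0 were higher and 3 were lower in KO, and their median log2 fold change was -0.32. The shares over all tested genes were 7.33% and 0.57%. The absence of higher genes depended on the setting, with 1 higher and 3 lower by DESeq2, 2 and 2 with library size as the only scaling (beside 10% and 0.6% of all genes), 2 and 3 without a filter on low counts and with the replicate block, and 2 and 5 with the length and GC correction. In the edgeR fit with TMM, the 3 lower genes were *Fosb*, *Npas4* and *Fos*. *Fosb* had 196 and 250 counts in the WT libraries against 92 and 108 in the KO libraries, at a log2 fold change of -1.10 (SE 0.21, adjusted p by edgeR 0.0153). *Npas4*, which was singled out after its values were seen, had a log2 fold change of -1.03 (adjusted p by edgeR 0.0235), and *Fos* one of -0.68 (adjusted p by edgeR 0.0294, and 0.088 with library size as the only scaling). The number of called genes in this list moved between 1 and 6 when a library was left out, and without KO 1 it was 2 higher and 0 lower, beside 5.35% and 0.656% of all genes.

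Of 13 glucocorticoid responsive genes, 8 were higher and 0 were lower in KO, beside the same 7.33% and 0.57% of all tested genes, and their log2 fold changes had a median of 1.64. With the replicate block, 9 were higher and 1 was lower, beside 9.65% and 3.68% of all genes, and with at least 10 counts in every library 5 of the 10 genes left were higher and 0 lower, beside 5.81% and 0.364% of all genes. The largest log2 fold change was that of *Mt2*, which encodes a metallothionein, with 1 and 0 counts in the WT libraries against 57 and 64 in the KO libraries. The antisense gene *Gm45774* overlaps 73.5% of the exonic bases of *Mt2*, and reads there cannot be assigned to a strand. The ratio of KO to WT for *Mt2* was 126 with an exact 95% interval from 22.25 to 5031 that covers counting error only. *Fkbp5*, which encodes a co-chaperone of the glucocorticoid receptor, had 361 and 481 counts in the WT libraries against 417 and 460 in the KO libraries. Its log2 fold change was 0.12 (SE 0.15, adjusted p by edgeR 0.662). The lists were chosen with earlier results of these data known. A part of cAMP, activity or glucocorticoids in the levels of the clock genes was not tested.

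Markers of other cell types moved with the genotype in the same libraries, to be read beside the 7.33% of all tested genes that were higher and the 0.57% that were lower. All 12 astrocyte markers were higher in KO, and their summed level was 263 to 278 CPM in WT and 4006 to 4208 CPM in KO, with *Gfap* at 0 counts in both WT libraries. Of 11 oligodendrocyte markers 9 were higher (151 to 168 CPM in WT, 634 to 664 CPM in KO, with *Opalin* at 0 counts in both WT libraries), and of 8 mural cell markers 7 were higher (63.2 to 71.5 CPM in WT, 420 to 426 CPM in KO, with *Acta2* at 0 counts in both WT libraries). Of 12 markers of neurons in general, 0 were higher and 3 were lower, with a summed level of 6229 to 6781 CPM in WT and 4565 to 4624 CPM in KO. The part of these cell types in the levels of the clock genes was not tested. In bulk RNA, a change in the number of cells of a type and a change in the RNA per cell cannot be told apart.

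The label of the sorted cells was checked on 10 markers of interneurons and the *Hmx3* lineage. All were detected in each library, among them *Hmx3* with 604 to 919 counts, *Gad1* with 1066 to 1552 and *Dlx1* with 4680 to 6497, and 0 of the 10 passed the threshold in either direction. Their summed level was 1512 to 1655 CPM in WT and 1276 to 1389 CPM in KO. In WT this lay above the sum of the astrocyte markers (263 to 278 CPM), and in KO below it (4006 to 4208 CPM). Detection of the lineage markers thus does not show that the genotypes held the same mix of cells. Excitatory neuron markers were present as well, at 425 to 447 CPM in WT and 231 to 257 CPM in KO, of which *Neurod6* and *Neurod2* were lower (2 of 6, beside 0.57% of all tested genes).

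The fold changes of the clock genes were recomputed under 8 other settings and with each of the 4 libraries left out. *Per1*, *Per2*, *Per3*, *Cry2*, *Nr1d1* and *Dbp* stayed under an adjusted p of 0.05 (edgeR or DESeq2) in all 12. The log2 fold change of *Per3* ranged from 2.72 to 3.49 when a library was left out, that of *Nr1d1* from 2.48 to 3.14 and that of *Dbp* from 1.95 to 2.78, while *Per1* stayed between 1.14 and 1.27. *Clock* was lower at an edgeR adjusted p of 0.000405 without WT 2 (log2 fold change -0.61), which leaves WT 1 as the only WT library.

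**Figure D5:**
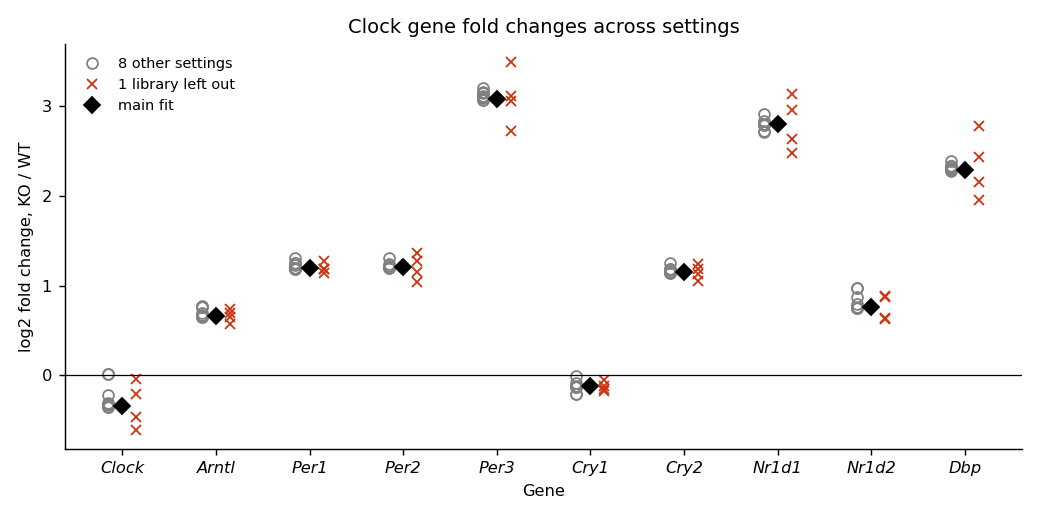
Log2 fold changes of KO against WT for the 10 clock genes in the main fit (black diamonds), in 8 other settings (grey circles) and with 1 library left out (red crosses). The points of *Per3*, *Nr1d1* and *Dbp* stay near 2 or above, those of *Cry1* and *Clock* lie at or below 0 apart from *Clock* at 0.016 with the length and GC correction.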

How the data were processed

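The deposited values are unscaled read counts for each Ensembl gene in 2 WT and 2 KO libraries, made by the authors. The submitters' processing notes name CASAVA 1.8.2, STAR 2.5.2a, featureCounts 1.5.0-p1 and mm10 (GRCm38), and the strand handling is not given in the sources used here. Of 55573 gene identifiers, 55480 matched GENCODE M21 (GRCm38), which gave symbols, positions, exonic lengths and overlaps. Low genes were removed with filterByExpr, and the rest were tested with TMM scaling and the quasi-likelihood test (edgeR 4.0.16, R 4.3.3) with genotype as the only term, with Benjamini-Hochberg adjustment over all 16832 genes tested. Standard errors were derived from the test statistic. The members and lists were chosen with earlier results of these data known, and a gene of the clock machinery list and a microglia marker are not reported here and not counted in their lists. Named genes were all members, called genes of the clock machinery and output lists and their 3 uncalled genes with the highest mean CPM, the called gene with the largest change in each direction of the induced lists, *Fos*, *Fkbp5* and *Dnmt1*. The procedure was tested on simulated counts. Counts of same-genotype libraries differed beyond sampling noise (chi-square over its degrees of freedom 57.2 between the WT and 4.28 between the KO libraries). Alternatives were DESeq2 1.42.0, other scalings and filters, a replicate block, a correction for GC content and gene length, and leaving out each library, where a genotype with a lone library is assumed to vary like the other.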

Additional observations from a re-analysis of the deposited data

How the results depend on the processing

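With 2 libraries per genotype, counts of called genes depended on the setting. Of the 10 clock genes, 6 to 8 were called in each of the 8 other settings. They were proposed with these results known, so their calls are not set against those of all genes. Over all genes 1329 were called (92.8% higher), against 2363 (75.8% higher) without a filter, 883 with at least 10 counts in every library, 2244 (72.4% higher) with the replicate block, 2773 (75.9% higher) with the length and GC correction, 3000 (73.8% higher) with both together, and 951 to 4209 with a library left out. Without WT 1, 3878 genes were called, and without WT 2, 4209 (48.2% higher). In the clock machinery, 5 genes were called, 8 with the correction, 9 with the correction and the block, and 5 to 10 with a library left out, where the 10 came without WT 1 and without WT 2. In the cAMP and activity list, 3 were called, 5 without a filter, 5 with the replicate block, 7 with the correction, 7 with both, and 1 to 6 with a library left out (6 without WT 1 or WT 2, 2 without KO 1, 1 without KO 2). In the glucocorticoid list, 8 were called, 5 with at least 10 counts in every library, and 7 to 11 with a library left out. The output list kept 2 calls, both higher, in each of the 8 other settings. Genes of this list were also called lower with a WT library left out. With a library left out, the log2 fold changes of *Alas1* and *Nampt* reached -0.47 and -0.60.

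The sign of *Clock* turned with the correction (0.016, and 0.016 with the block as well), that of *Por* with library size only (0.057) and with a library left out (-0.23 to 0.15), and that of *Nampt* with a library left out (-0.60 to 0.019). The cause was not tested. The labels give both genotypes replicate numbers 1 and 2 but do not say that a number marks a batch. Same-numbered libraries deviated together with a correlation of 0.159 across genes, which does not settle whether they share more than a number. With the replicate block *Nr1d2* was also called (edgeR adjusted p = 0.0308), the other calls of the 10 clock genes stayed, and *Dnmt1* was lower (edgeR adjusted p = 0.0149). At these depths, *Dbp* and *Nr1d1* in WT rest on 23 to 55 counts a library.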

Other observations

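In the remaining marker lists, few genes passed the threshold, which 7.33% of all tested genes passed upwards and 0.57% downwards. Of 5 oligodendrocyte precursor markers, *Olig2* passed the threshold upwards in KO (edgeR adjusted p = 0.0298), and their summed level was 1283 to 1339 CPM in WT and 1631 to 1707 CPM in KO. Of 8 microglia markers 7 were tested, and *Csf1r* was higher (edgeR adjusted p = 0.0474), at a summed level of 28.7 to 36.7 CPM in WT and 61.6 to 62.1 CPM in KO. Of 7 choroid plexus markers 5 were tested, and *Ttr* was lower, with 329 and 564 counts in the WT libraries against 8 and 10 in the KO libraries. Of 6 neural progenitor markers 0 passed (smallest edgeR adjusted p = 0.0614), as did 0 of the 6 endothelial markers tested (0.0729). The genes named here were picked with their values known.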
